A study of Mus musculus with 12 samples.

Results

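Glutamate receptors and transporters made up 32 of the 49315 genes counted in the dorsal root ganglia (DRG) of mice with Schwann cell deletions of Nf2, alone or together with Fak. They were picked by gene symbol, a rule that used no measured value, although earlier results of these data were known. They comprised 18 ionotropic receptor subunits, 8 metabotropic receptors and 6 transporters. All 32 were present in the table. A filter on low counts passed 30 of them, and the metabotropic receptors Grm2 (1 to 17 reads per mouse) and Grm6 (0 to 4 reads) were too low to test.

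Bulk RNA sequencing was performed on about 8 microdissected, flash-frozen ganglia from each of 12 mice aged 10 months, with 1 library per mouse. The 6 Nf2 mice carried Postn-Cre and Nf2 flox/flox, and the 6 DKO (double knockout) mice carried Fak1 flox/flox (the gene listed as Ptk2) in addition, so Cre and the floxed Nf2 were common to both genotypes. Each genotype held 3 mice labelled male and 3 labelled female, and no Cre-negative mouse was among the 12. Cre was driven by the Periostin promoter in Schwann cells and their precursors, while the libraries were made from whole ganglia, which also hold neurons, satellite glia, vessels and immune cells.

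Glutamate is the main fast transmitter of primary sensory neurons, whose cell bodies make up the DRG. Vesicular transporters load it into synaptic vesicles, ionotropic receptors are ion channels assembled from subunits of the AMPA, kainate, NMDA and delta families, metabotropic receptors signal through G proteins, and plasma membrane transporters clear glutamate from the space around cells. In sensory neurons, NMDA and kainate receptors are known on central terminals that contact the spinal cord. Subunits of the Grin3 type give NMDA receptors with low calcium permeability, and their main ligand is glycine.

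The stretch of coding sequence most alike among all 18 ionotropic subunits lies at the end of the third membrane segment, next to the channel gate. It is shown for 5 subunits because Grin3a, the gene with the clearest genotype difference, departs from the family there. The 27 bases in capitals are 9 codons, and the lower-case bases are the flanking codons. Each sequence is given 5′ to 3′ on the coding strand and lies within a single exon. The sequences were read from GRCm38 with the GENCODE M21 annotation.
Grin1 (chr2:25297190-25297234, minus strand): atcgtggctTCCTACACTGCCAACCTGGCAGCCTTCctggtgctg
Grin3a (chr4:49770461-49770505, minus strand): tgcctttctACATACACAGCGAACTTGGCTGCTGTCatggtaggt
Grin3b (chr10:79974627-79974671, plus strand): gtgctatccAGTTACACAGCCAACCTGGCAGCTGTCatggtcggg
Gria2 (chr3:80702560-80702604, minus strand): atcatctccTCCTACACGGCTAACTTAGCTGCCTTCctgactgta
Grik3 (chr4:125694033-125694077, plus strand): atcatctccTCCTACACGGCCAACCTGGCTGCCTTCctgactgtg
Once translated, 16 of the 18 subunits had the same residue as Grin1 at 9 of 9 positions. The exceptions were Grin3b, with 8 of 9, and Grin3a, with 7 of 9. At the level of bases, Grin3a matched Grin1 at 19 of 27, Grin3b at 21, Gria2 at 22 and Grik3 at 25.

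Total counts ranged from 21129191 to 41250329 per mouse, and gene values are given as CPM, the count scaled to a library total of 1000000. Markers of sensory neurons summed to 9269 to 12868 CPM in Nf2 mice and 10238 to 11552 CPM in DKO mice, and those of Schwann cells to 7584 to 10445 and 7304 to 10718 CPM, so markers of the labelled tissue were present in every library. The targeted Ptk2 had 65.8 to 75.5 CPM in Nf2 and 46.5 to 76.0 CPM in DKO mice (log2 fold change -0.15, adjusted p = 0.53), a whole-gene count from a tissue that also holds cells without Cre. Mouse 702, labelled male, had 496 CPM of the female-specific transcript Xist and 0.525 CPM of the Y-linked Ddx3y, whereas the other 5 mice labelled male had at most 6.17 CPM of Xist and at least 76.0 CPM of Ddx3y. Skeletal muscle markers summed to 13.9 to 1085 CPM in Nf2 (median 695) and 20.7 to 346 CPM in DKO mice (median 90.3). All 10 muscle markers had log2 fold changes below 0, with a median of -2.18, and none passed the test. The sums in Nf2 and DKO mice were 1919 to 2367 and 1759 to 2231 CPM for satellite glia, 200.3 to 317 and 211 to 306 CPM for oligodendrocytes (Opalin at 0 in some mice), and 215 to 322 and 177 to 238 CPM for macrophages. Aspa made up most of the oligodendrocyte sum, at a mean of 204 CPM in Nf2 and 174 CPM in DKO mice. Its log2 fold change was -0.25, whereas those of the other 7 oligodendrocyte markers tested were above 0, and none of the 8 passed the test.

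Levels of the 32 genes were first compared with each other as CPM per kilobase of exon. The vesicular transporters Slc17a6 and Slc17a7 and the kainate subunit Grik1 led the order, and Grin2a, Grin2b, Grm2 and Grm6 were at its end. Slc17a6, the vesicular transporter of most glutamatergic sensory neurons, stood at 37.4 ± 2.72 CPM per kilobase (mean ± SD, n = 12). It was followed by the kainate subunit Grik1 at 29.0 ± 3.12 and the vesicular transporter Slc17a7 at 24.2 ± 2.97. The next gene, Grik5, was at 12.0 ± 1.27, and this was the only step in the whole order at which the ranges of 2 neighbouring genes did not overlap.

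From Grik5 downward the order was Gria4 (11.6 CPM per kilobase), Grik3 (10.7), Grm7 (9.97), Grin1 (8.18), Gria3 (6.71), Grik4 (6.68), Grm4 (4.73) and Slc1a2 (4.33). All neighbours in that series overlapped. Gria3 and Grik4 had the closest means, and Gria3 was the higher in 6 of 12 mice. At the low end, Grin2a was at 0.0871 ± 0.0885, Grin2b at 0.0673 ± 0.0633, Grm2 at 0.0602 ± 0.042 and Grm6 at 0.00578 ± 0.00952 CPM per kilobase. The range between the highest and the lowest gene thus spanned several orders of magnitude, which the plot of levels by mouse shows on a log axis.

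**Figure D1:**
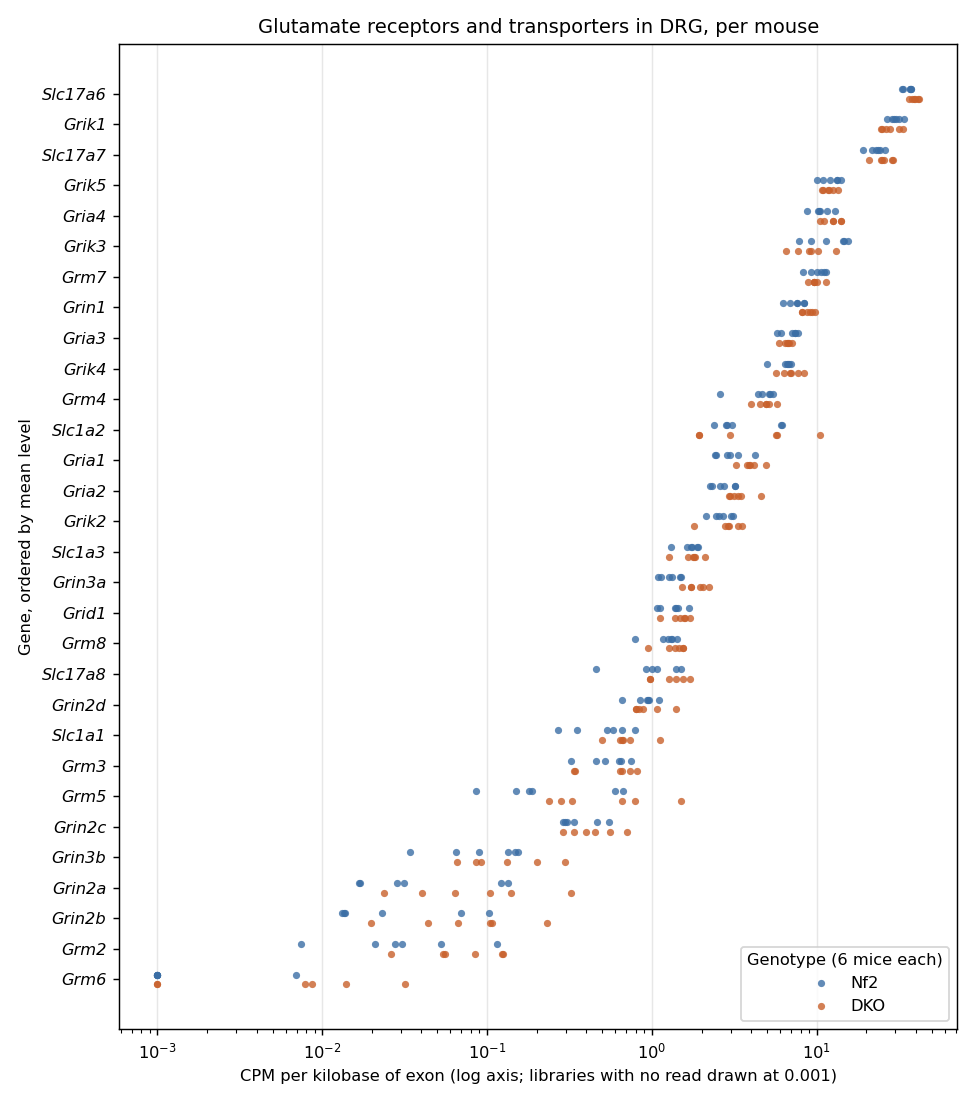
Level of the genes reported in every mouse as CPM per kilobase of exon (log axis), ordered by the mean over 12 mice, with Nf2 mice in blue and DKO mice in orange. Slc17a6, Grik1 and Slc17a7 lie to the right of all other genes, and the points of Grm5, Grin2a and Grin2b spread widely within both genotypes.

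Within classes, the per-kilobase levels gave each subunit's share of its family. Slc17a6 held 59.9% ± 1.82 of the vesicular transporter sum in Nf2 mice and 59.4% ± 2.60 in DKO mice (SD, n = 6 each), Slc17a7 held 38.3% ± 2.34 and 38.6% ± 2.35, and Slc17a8, the vesicular transporter of a small group of low-threshold neurons, held the rest. Grik1 held 47.2% ± 2.56 and 47.4% ± 4.49 of the kainate sum. Grin1, the obligatory NMDA subunit, held 73.0% ± 1.34 and 71.0% ± 3.57 of the NMDA sum, whereas the Grin2 subunit with the largest share, Grin2d, held 8.81% ± 0.962 and 7.67% ± 1.26.

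The question put to the genotypes was whether the loss of Fak in addition to Nf2 changed these genes in the ganglion. A single gene, the NMDA subunit Grin3a, passed the test, and it was higher in DKO mice. The remaining 29 tested genes did not pass. In the quasi-likelihood F test of edgeR, with 6 against 6 mice and adjustment over 18295 genes, 1 of 30 (3.33%) was called at an adjusted p under 0.05, and 0.94% of all genes tested were (0.372% higher and 0.568% lower). This share rests on 1 gene.

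At the unadjusted level 6 of 30 (20%) were past 0.05, and 14.9% of all genes were. The higher genes in DKO mice were Grin3a, Grin1, Gria1, Gria2 and Gria4, 5 of 30 or 16.7% against 6.91% of all genes, and the lower gene was Grik3, 3.33% against 7.96% of all genes. The log2 fold change lay above 0 for 24 of 30 genes, against 51% of all genes, and its median was 0.15 over the 30 genes and 0.005 over all genes. These shares are a description of correlated genes from the same libraries. With astrocyte level as a covariate, 17 of 30 genes lay above 0, the median was 0.02, and the genes past an unadjusted 0.05 were Grin3a, Grik3, Slc1a2 and Grm3. In that fit the log2 fold changes of Grin1, Gria1, Gria2 and Gria4, which no longer passed 0.05, were 0.13, 0.15, 0.10 and 0.01. Shares of all genes from this fit are not given here. Astrocyte marker sums themselves ran higher in DKO mice (80.8 to 182 CPM in Nf2 and 148 to 287 CPM in DKO mice). The fit therefore cannot fully separate genotype from astrocyte level. In whole ganglia, fewer cells of a type and less RNA per cell cannot be told apart.

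**Figure D2:**
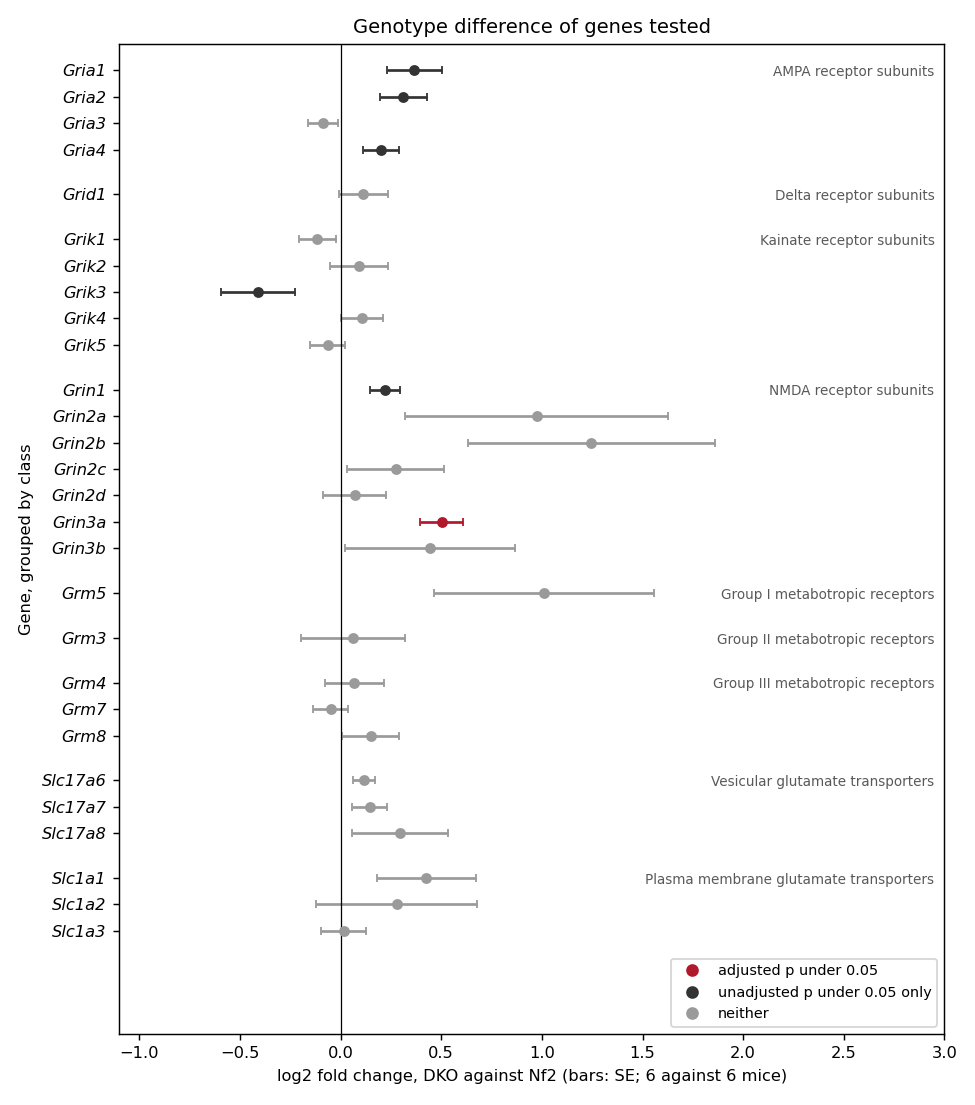
Log2 fold change of DKO against Nf2 mice with its standard error for genes tested, grouped by class (6 against 6 mice). Grin3a, in red, is the only gene past the adjusted threshold, and the widest bars belong to Grin2a, Grin2b and Grm5.

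Among NMDA subunits, Grin3a (ENSMUSG00000039579, chromosome 4, 49661611 to 49845744, minus strand) was measured at 13.3, 13.9, 15.5, 16.2, 18.2 and 18.5 CPM in Nf2 mice. In DKO mice it was measured at 18.7, 21.06, 21.08, 24.0, 25.2 and 27.4 CPM. The genotypes did not overlap (1 of 30 genes, and 1.95% of all genes in either direction), although the lowest DKO mouse (887) was next to the highest Nf2 mouse (884), and 0.902% of all genes were separated in that direction. The mean was 15.9 ± 2.12 CPM in Nf2 and 22.9 ± 3.20 CPM in DKO mice (SD), so that Grin3a rose 1.42-fold (0.50 ± 0.11 on the log2 scale, SE, adjusted p = 0.0436). DESeq2, which called 4.62% of all genes, and limma voom, which called 2.85%, also called Grin3a and no other of the 30.

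The call of Grin3a stood close to the threshold. Left out in turn, each mouse gave a log2 fold change between 0.45 and 0.55, but the adjusted p stayed under 0.05 only without mouse 702, 884 or 887 and ranged from 0.0285 to 0.108. The adjusted p was 0.0979 with skeletal muscle level as a covariate, 0.0487 with spinal cord neuron level and 0.228 with astrocyte level, where the log2 fold change was 0.35. Over all alternatives it ranged from 0.00104 to 0.547. Astrocyte markers summed to 80.8 to 182 CPM in Nf2 mice and 148 to 287 CPM in DKO mice. The log2 fold change was above 0 for 7 of those 8 markers, and 1 of them, Mlc1, a membrane protein of astrocytes, was higher at an adjusted p of 0.00838. No exon of another annotated gene overlapped those of Grin3a.

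Grin1 (chromosome 2, 25291181 to 25319187) had 60.8, 66.9, 73.2, 73.7, 80.9 and 81.1 CPM in Nf2 mice. In DKO mice it had 78.4, 78.8, 84.4, 88.0, 90.4 and 95.1 CPM. The ranges overlapped only where the 2 lowest DKO mice fell below the 2 highest Nf2 mice. Its log2 fold change was 0.22 ± 0.07 (adjusted p = 0.171), and all 6 DKO mice were above the Nf2 mean. The antisense gene Grin1os shares 13.5% of the exon bases of Grin1. Whether reads were counted by strand is not given in the sources used here, so it is not known if reads from the shared bases were told apart.

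Relative to Grin1, Grin3a was at 0.174 ± 0.0254 per kilobase in Nf2 mice and 0.211 ± 0.0268 in DKO mice. Its share of the NMDA sum was 11.0% to 15.1% in Nf2 and 13.7% to 17.0% in DKO mice, and these ranges overlapped. The other 5 NMDA subunits all had log2 fold changes above 0 without passing the test. Grin2c, known mainly from glia and cerebellar neurons, was at 0.27 ± 0.24, and Grin2d, known from interneurons and early development, at 0.07 ± 0.16. Grin3b, the other subunit of the Grin3 type, was at 0.44 ± 0.42. It had as few as 3 reads in a mouse, and 32.1% of its exon bases were shared with Tmem259 on the opposite strand.

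AMPA receptor subunits carry fast excitatory currents. In Nf2 mice, Gria1 was measured at 14.5, 14.8, 17.2, 18.1, 20.2 and 25.5 CPM, and in DKO mice at 19.5, 22.7, 23.5, 23.6, 25.1 and 29.7 CPM. A single DKO mouse exceeded every Nf2 mouse, since Nf2 mouse 884 lay among the DKO values. The log2 fold change was 0.37 ± 0.13 (adjusted p = 0.209).

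Gria2, the subunit that makes AMPA receptors impermeable to calcium, had 34.8, 35.8, 40.2, 42.7, 49.4 and 49.9 CPM in Nf2 mice. DKO mice had 45.5, 46.3, 49.1, 51.6, 53.8 and 71.4 CPM. Mouse 917 stood apart at the top, and 3 of 6 DKO mice were above all Nf2 mice. Its log2 fold change was 0.31 ± 0.12 (adjusted p = 0.218).

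Gria4, the AMPA subunit with the highest level, spanned 55.3, 63.8, 65.4, 66.2, 72.8 and 81.1 CPM in Nf2 mice and 65.9, 69.4, 79.2, 79.2, 88.3 and 88.8 CPM in DKO mice. The groups overlapped over much of their range, with a log2 fold change of 0.20 ± 0.09 (adjusted p = 0.32). Gria3 ran the other way in sign, at -0.09 ± 0.07, and its share of the AMPA sum was 29.6% ± 2.44 in Nf2 and 25.0% ± 2.08 in DKO mice. Gria1's share was 12.9% ± 1.38 and 15.05% ± 1.12. Shares of a class sum to a whole, so a lower share of Gria3 and a higher share of Gria1 are not separate observations.

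Kainate receptor subunits include Grik1, known from small-diameter sensory neurons. Grik1 had 179, 192, 197, 202, 210 and 227 CPM in Nf2 mice and 164, 168, 177, 186, 211 and 225 CPM in DKO mice. The ranges overlapped, and its log2 fold change was -0.12 ± 0.09. It was among the genes with the least spread, at a coefficient of variation within genotypes of 10.7%.

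Grik3, a kainate subunit of low glutamate affinity, was the most variable of the family. It had 69.6, 82.8, 102, 129, 131 and 139 CPM in Nf2 mice and 58.5, 69.1, 80.6, 82.9, 91.2 and 117 CPM in DKO mice. The ranges overlapped over most of their length, and 5 of 6 DKO mice were below the Nf2 mean. The log2 fold change of -0.41 ± 0.19 had an adjusted p of 0.317. With sensory neuron level as a covariate the log2 fold change was -0.38 and the adjusted p 0.031 (0.031 to 0.88 over all alternatives), the only alternative in which a gene other than Grin3a was called. Grik2, Grik4 and Grik5 had log2 fold changes between -0.06 and 0.11.

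**Figure D3:**
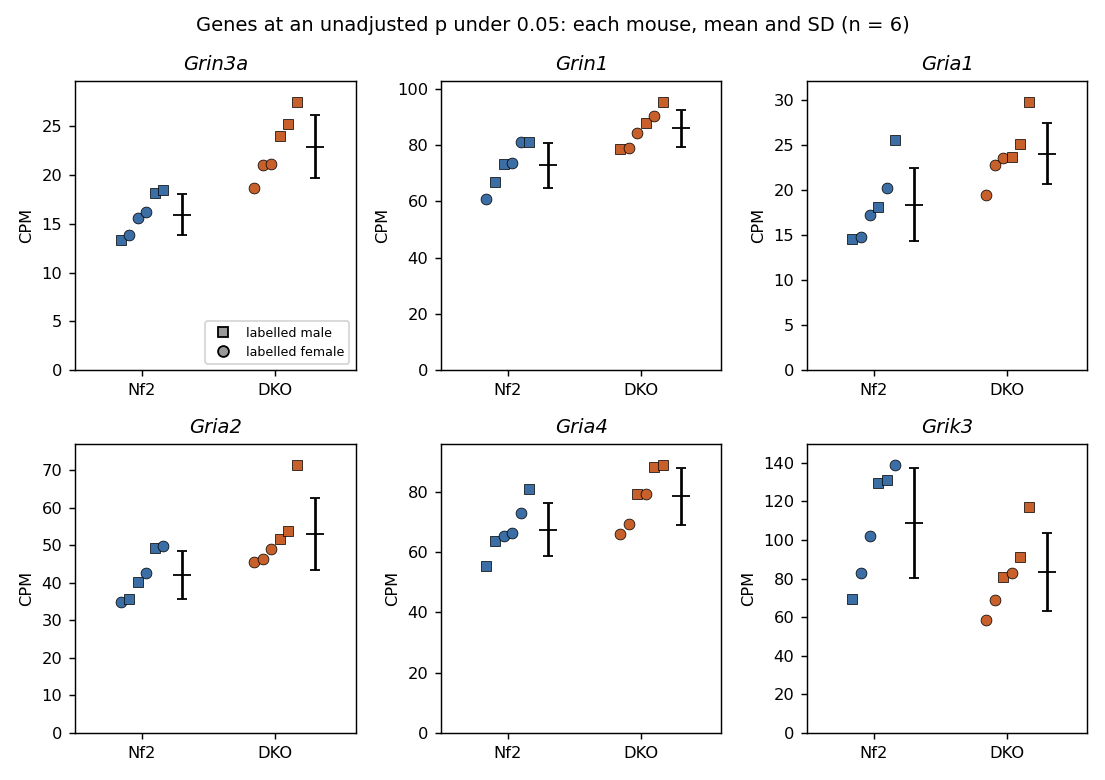
CPM of Grin3a, Grin1, Gria1, Gria2, Gria4 and Grik3 in every mouse, with the mean and SD of 6 mice per genotype beside the points and squares for mice labelled male. Grin3a is the gene without overlap, at 13.3 to 18.5 CPM in Nf2 and 18.7 to 27.4 CPM in DKO mice.

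The delta subunit Grid1 is a synaptic organizer that binds secreted partners of the Cbln family. Grid1 had 6.43, 6.69, 8.18, 8.32, 8.56 and 9.98 CPM in Nf2 mice and 6.72, 8.26, 8.88, 9.38, 9.41 and 10.1 CPM in DKO mice. The values were interleaved. The log2 fold change was 0.11 ± 0.12.

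Metabotropic receptors of group I, such as Grm5, couple to calcium release, and those of groups II and III lower cyclic AMP. Grm7, a presynaptic group III receptor, had 48.5, 54.6, 59.1, 62.2, 64.7 and 66.8 CPM in Nf2 mice and 52.1, 56.5, 56.8, 57.0, 59.1 and 66.7 CPM in DKO mice. The DKO values lay inside the Nf2 range, with a log2 fold change of -0.05 ± 0.09. It held 63.6% ± 7.01 of the group III sum in Nf2 and 61.3% ± 4.20 in DKO mice, ahead of Grm4 and Grm8, whose log2 fold changes were 0.07 ± 0.15 and 0.15 ± 0.14.

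Grm3, a group II receptor, had 0.98, 1.39, 1.59, 1.91, 1.99 and 2.28 CPM in Nf2 mice and 1.02, 1.04, 1.96, 2.00, 2.25 and 2.46 CPM in DKO mice, which overlapped throughout (log2 fold change 0.06 ± 0.26). The untested Grm2 had 0.0367 to 0.561 CPM in Nf2 and 0.128 to 0.615 CPM in DKO mice. Grm6, the receptor of retinal bipolar cells, was without a read in 5 of 6 Nf2 mice and in 2 of 6 DKO mice and reached 0.173 CPM.

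Transporters showed no call. Slc17a6 had 176, 180.0, 198, 199, 199.8 and 202.5 CPM in Nf2 mice and 195, 203, 209, 214, 222 and 226 CPM in DKO mice. All but 1 DKO mouse were above the whole Nf2 range. The log2 fold change was 0.12 ± 0.05 (adjusted p = 0.336), and the spread within genotypes was the smallest of the 32 genes, at a coefficient of variation of 5.67%. Slc17a7 was at 0.14 ± 0.09 and Slc17a8 at 0.29 ± 0.24. The per-kilobase ratio of Slc17a7 to Slc17a6 was 0.640 ± 0.0578 in Nf2 and 0.653 ± 0.0666 in DKO mice, a difference smaller than the spread.

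Of the plasma membrane transporters, Slc1a3, which satellite glia express, was at 14.5 ± 1.87 CPM in Nf2 and 14.8 ± 2.31 CPM in DKO mice, with a log2 fold change of 0.01 ± 0.11. Slc1a1, the neuronal transporter, was at 0.43 ± 0.25, with 31.9% of its exon bases shared with 4430402I18Rik on the opposite strand. Slc1a2, the main transporter of astrocytes, had 31.1, 37.1, 37.4, 40.3, 79.2 and 80.8 CPM in Nf2 mice and 25.3, 25.4, 39.2, 74.5, 75.5 and 137 CPM in DKO mice. Both genotypes split into low and high mice, so the log2 fold change of 0.28 ± 0.40 (adjusted p = 0.8) was small beside the spread.

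The spread of Slc1a2 was shared by other genes. Grm5, which had 0.879, 1.53, 1.84, 1.91, 6.13 and 6.80 CPM in Nf2 mice and 2.43, 2.89, 3.36, 6.76, 8.10 and 15.5 CPM in DKO mice, was highest in the same 5 mice: DKO mice 917, 915 and 914 and Nf2 mice 884 and 1049. The same held for Grin2a, Grin2b and Gria2. The gap was wide for Grm5 (at least 6.13 CPM in the 5 mice and at most 3.36 in the other 7), Slc1a2 (74.5 and 40.3) and Grin2a (1.87 and 1.15), and narrow for Grin2b (1.72 and 1.66) and Gria2 (49.4 and 49.1).

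The 5 mice had been picked as those with the most RNA of spinal cord neuron markers, and 6 of the 32 genes had their 5 highest values in them. The share of all genes that were highest in these 5 mice is not given here. The summed level of the 10 markers was 33.0 to 70.4 CPM in them and 9.94 to 16.8 CPM in the other 7, with Lhx1, Lhx5 and Chat at 0 in some mice. By genotype, the sums were 12.8 to 44.0 CPM in Nf2 and 9.94 to 70.4 CPM in DKO mice. Of the 7 markers tested, Gad1, Gad2, Slc32a1 and Slc6a5, genes of inhibitory spinal neurons, had log2 fold changes above 0 (0.49 to 0.92). Those of Pax2, Slc5a7 and Lmx1b were below 0 (-0.10, -0.17 and -0.24), and none of the 7 passed the test. As the 5 mice were picked out by marker level, the values are given as a description.

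**Figure D4:**
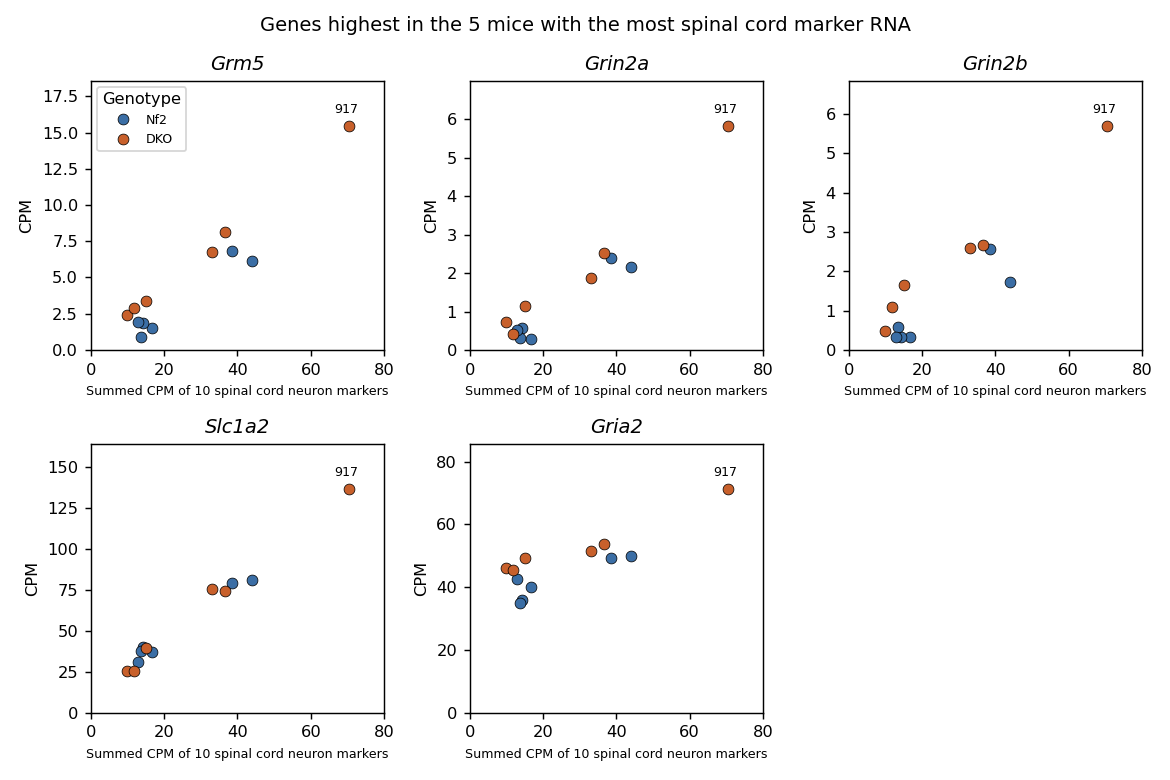
CPM of Grm5, Grin2a, Grin2b, Slc1a2 and Gria2 in every mouse against the summed CPM of 10 spinal cord neuron markers. The genes shown were selected for this pattern. The 5 mice at 33.0 CPM of markers or more have the 5 highest values of each gene, and mouse 917, at 70.4 CPM of markers, is the highest in all 5 panels.

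In the genotype comparison, the point estimates of 3 receptor genes in this set were the largest among the 30, at 0.97 ± 0.65 for Grin2a, 1.24 ± 0.61 for Grin2b and 1.01 ± 0.55 for Grm5. The adjusted p values were 0.533, 0.369 and 0.421. With spinal cord neuron level as a covariate the estimates were 0.49, 0.87 and 0.68, and that of Slc1a2 was -0.16, with no adjusted p under 0.05. With astrocyte level as a covariate they were -0.58, 0.04 and -0.05, and Slc1a2 was at -0.69. No adjusted p was under 0.05 there either, and Grin2a, Grm5 and Slc1a2 thus had opposite signs in the fits with and without this covariate.

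By labelled sex, none of the 30 genes passed an edgeR test for a genotype effect that differed between males and females, and 0.0109% of all genes did. At an unadjusted p under 0.05 there were 2 of 30 (6.67%, and 4.78% of all genes), Slc1a2 and Grik1. Slc1a2 was at 37.1 to 79.2 CPM in Nf2 males and 74.5 to 137 CPM in DKO males, and at 31.1 to 80.8 CPM in Nf2 females and 25.3 to 39.2 CPM in DKO females. The interaction was 1.55 ± 0.56 on the log2 scale (adjusted p = 0.92) and 0.35 with spinal cord neuron level as a covariate. All 3 DKO males, and none of the DKO females, were among the 5 mice with the most spinal cord marker RNA. Without mouse 702 the interaction was 1.40.

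For Grik1 the DKO males (168 to 186 CPM) lay below the Nf2 males (202 to 227 CPM). DKO females (164 to 225 CPM) and Nf2 females (179 to 197 CPM) overlapped. Each of these groups held 3 mice, and the share of all genes separated in this way in males is not given here. The Grik1 interaction was -0.40 ± 0.16 (adjusted p = 0.92). The Nf2 males include mouse 702 (210 CPM), whose Xist and Ddx3y levels were those of females, and without it the interaction was -0.41. Between males and females with genotype as a covariate, 0 of 30 genes passed and 0.0164% of all genes did, and at an unadjusted p under 0.05 there were 2 of 30 (6.67%, and 2.91% of all genes). These were Slc1a2 (0.87 ± 0.36 higher in males on the log2 scale) and Grin3a (0.23 ± 0.09), both at an adjusted p of 0.9999. With spinal cord neuron level as a covariate the estimates were 0.19 and 0.16. DESeq2 called none of the 30 in either sex model. Grin3a was at 24.0 to 27.4 CPM in DKO males and 18.7 to 21.1 CPM in DKO females. In Nf2 mice the sexes overlapped, at 13.3 to 18.5 CPM in males and 13.9 to 16.2 CPM in females. Its genotype by sex interaction was 0.15 ± 0.18 (adjusted p = 0.92 in the edgeR test). The share of all genes separated by sex in DKO mice is not given here.

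A further 58 genes that act on glutamate receptors or on glutamate were examined in 4 lists, of which 55 were tested. None passed the edgeR test in either direction. DESeq2 called 5 of the 55 (C1ql1, Cacng5, Cbln1, Dlg3 and Nptxr) and 4.62% of all genes. In simulated data 19.2% of the DESeq2 calls were false. Limma voom called 3 (C1ql1, Nptxr and Shisa6) and 2.85% of all genes. At an unadjusted p under 0.05, 12 of 55 were higher and 3 lower in DKO mice, where 6.91% and 7.96% of all genes were. Fold changes lay above 0 on the log2 scale for 43 of 55 and for 51% of all genes, and the median was 0.15, the same to 2 decimals as for the receptors and transporters.

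Auxiliary subunits, which traffic and tune AMPA and kainate receptors, had 4 of 14 higher and 1 lower at the unadjusted level (6.91% and 7.96% of all genes, here and for the lists that follow), and the smallest p belonged to Cacng5, an AMPA receptor partner (15.2 ± 2.25 CPM in Nf2 and 19.6 ± 2.00 CPM in DKO mice, log2 fold change 0.34 ± 0.11, adjusted p = 0.141). Synaptic scaffolds had 1 of 18 higher and 1 lower, led by the NMDA receptor scaffold Dlg3 (36.4 ± 1.86 and 32.3 ± 1.92 CPM, -0.19 ± 0.06, adjusted p = 0.138). Genes of glutamate metabolism and its carriers had 3 of 15 higher, led by the glutamine transporter Slc38a1 (52.5 ± 10.9 and 70.2 ± 10.9 CPM, 0.40 ± 0.14, adjusted p = 0.183).

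Secreted and membrane-bound organizers that cluster receptors had 4 of 8 tested genes higher and 1 lower at the unadjusted level (6.91% and 7.96% of all genes). The lower gene, Nptxr, the receptor for neuronal pentraxins that gather AMPA receptors, had 125 to 148 CPM in Nf2 mice and 114 to 124 CPM in DKO mice without overlap, as had 1.04% of all genes in that direction. Its log2 fold change was -0.22 ± 0.05 (adjusted p = 0.0683). It passed the threshold with DESeq2, with limma voom and with sensory neuron level as a covariate, as did C1ql1, a secreted organizer named here after its values were seen (log2 fold change 1.71 ± 0.41, adjusted p = 0.0702).

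RefSeq promoter sequences (250 bases before to 50 after the start, GRCm38.p6) were at hand for 21 of the 32 genes, with 26 promoters in all, and Grin3a was not among them. The GC box GGGCGG, read on both strands, occurred in 14 of the 26, and in 35.7% of 32851 promoters of that length. By gene it occurred in 13 of 21, and the promoters of Grm7 overlap and share their GC box. The promoters of these genes were richer in G and C, at a median of 60.8% against 52.7% over all promoters, and the part of this in the matches was not tested. The sequence TATAAA occurred in 2 of 26 and in 13.6% of all promoters, and TGACGTCA, the cyclic AMP response element, in 0 of 26 and in 1.79%. These are matches of letters and not sites of binding.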

How the data were processed

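RNA was extracted, poly(A)-selected and sequenced by a commercial provider, with 1 library per mouse. The authors deposited raw counts, unnormalized whole-number reads for each Ensembl gene. The submitters' processing notes name Trimmomatic 0.36, STAR 2.5.2b, featureCounts of Subread 1.5.2 and GRCm38. Strand setting, annotation release and handling of multiply mapped reads are not given in the sources used here.

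The main tool was edgeR 4.0.16 under R 4.3.3. Genes were kept by filterByExpr, scaled by TMM and compared by the quasi-likelihood F test on all 12 mice, with Benjamini-Hochberg adjustment and a threshold of 0.05. Another model held genotype and labelled sex, and a further model their interaction. The SE of a fold change was taken from the F statistic. DESeq2 1.42.0, limma voom 3.58.1, other scaling and filters, list-level covariates, single sexes and the omission of each mouse served as alternatives. The astrocyte covariate, the spinal cord covariate in the sex models and the males without mouse 702 were added after seeing the data. The procedure was tested on simulated data with 200 genes changed 2-fold or 4-fold, each gene drawn independently. In the genotype comparison edgeR recovered 77% of the 2-fold and 96% of the 4-fold changes. Smaller changes, such as the 1.42-fold of Grin3a, and correlated genes were not simulated. In the genotype comparison, 4.42% of the edgeR calls, 19.2% of the DESeq2 calls and 2.89% of the limma voom calls were false. Library totals set the counting precision, which was finer than the spread between mice for all but the lowest genes. Of 66 pairs of libraries, none agreed within sampling noise (chi-square per degree of freedom of at least 10.6).

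GENCODE M21 gave positions and exon lengths, and held 99.5% of the 49315 identifiers. Dlg2 occurred under 2 identifiers, and the one with more counts was used. The genes, the 4 further lists, the cell type lists and the tests were chosen with earlier results of these data known. Values in every mouse were given for genes past either threshold, for genes whose genotypes did not overlap and for the gene with the highest CPM of each class. Of each further list, the gene with the smallest p was named. Results of some of the 32 genes are not reported here, although counts over all genes include them.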

Additional observations from a re-analysis of the deposited data

Results flagged for a closer look

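In 4 of the 80 groups of 6 mice examined, the highest or lowest mouse lay farther from the rest than Dixon's 95% limit allows, and chance alone would give about 4. Gria2 in DKO mouse 917 was at 71.4 CPM, with the next DKO mouse at 53.8 CPM, and this library had the most spinal cord marker RNA. Grik4 in Nf2 mouse 918 was at 29.7 CPM, below the next Nf2 mouse at 38.1 CPM. Grm4 in Nf2 mouse 649 was at 15.5 CPM, below the next at 26.4 CPM. Grm6 in Nf2 mouse 702 was at 0.0375 CPM, a single read, while the other 5 Nf2 mice had none.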

How the results depend on the processing

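Main counts in the genotype comparison were 172 genes, 1 receptor or transporter (Grin3a) and 0 genes of the further lists. Genes called numbered 845 with DESeq2, 521 with limma voom, 103 with the muscle covariate, 598 with the sensory neuron covariate, 49 with the astrocyte covariate, 2 in males, 57 in females and 9 in males without mouse 702. Leaving out each mouse gave 81 to 217. Among receptors and transporters, the count was 0 without the filter (Grin3a at an adjusted p of 0.059), with the muscle or astrocyte covariate, in males, in females and in males without mouse 702, 2 with the sensory neuron covariate (Grin3a and Grik3), and 0 to 1 with each mouse left out. In the further lists it was 5 with DESeq2, 3 with limma voom, 4 with the sensory neuron covariate and 0 to 1 with each mouse left out. Genes with a genotype by sex interaction (2) numbered 20 with DESeq2, 6 without the filter and 2 to 6 with each mouse left out. Genes that differed by sex (3) numbered 5 with DESeq2, 5 without the filter and 0 with the spinal cord covariate. They numbered 10 without mouse 702, labelled male but with Xist and Ddx3y at the levels of females, and 0 without any other mouse. Single-sex fits have 3 mice per genotype and so fewer samples. For the other changes, the cause was not tested. Over all alternatives the log2 fold change of Grin3a was 0.35 to 0.63. No paired analysis was possible because the labels give only mouse numbers, which no 2 groups share. Depth limits Grm2, Grm6, Grin3b, Grin2a and Grin2b, which had under 10 reads in at least 1 mouse.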
